A study of Mus musculus with 12 samples.

Results

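The circadian clock genes followed here are 10 named genes of the cell-autonomous clock and its output: Clock, Per1, Per2, Per3, Cry1, Cry2, Nr1d1, Nr1d2, Dbp and Tef. They were taken by symbol from the probe sets that the array annotation assigns to a single gene, and where a gene had several such probe sets the one whose mean over the 12 arrays was highest represents it. By this rule 9 of the 10 genes were measured, among 22180 genes in all. Per2 had no probe set of its own, only 1 shared with another gene, and is not analysed here. Of the 9 genes, Tef alone had 2 probe sets.

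Expression was measured on 12 Affymetrix arrays, 3 biological replicates in each of 4 groups, in freshly isolated material from C57BL/6 mice. The materials compared were unfractionated adipose tissue (AT) and adipose progenitors (AP). Both came from subcutaneous fat of the inguinal depot (SAT) and from visceral fat of the perigonadal depot (VAT). To obtain AP, the tissue was dissociated with enzymes, and magnetic beads then took out the lineage+ hematopoietic and the CD31+ endothelial cells of the stromal-vascular fraction. AP are therefore defined by what was depleted and not by a marker of their own. Fat of several mice was used. Values are log2 intensities after robust multi-array averaging (RMA), so a difference of 1 is a 2-fold change. A probe set's level cannot be set against another's, and all levels below are compared within a gene. Which mice stand behind which replicate, the hour of collection, age and sex are not given in the sources used here. The p-values therefore measure the spread between these samples.

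The molecular clock is a feedback loop of transcription. CLOCK pairs with BMAL1 (gene Arntl) and activates genes through E-boxes, among them the Per and Cry genes, whose proteins then inhibit CLOCK and BMAL1. The nuclear receptors REV-ERB alpha and beta (Nr1d1 and Nr1d2) form an inner loop that represses Arntl and Clock, and the leucine zipper factors DBP and TEF carry the rhythm to output genes through D-boxes. In fat, as in most organs, many transcripts of metabolism cycle with this loop, and Per1 is also known as a gene that responds quickly to cAMP and to glucocorticoids.

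Sequences upstream of the members' start sites were searched for exact strings of the clock's own elements close to the start. RefSeq sequences of mouse build GRCm38.p6 were found for all 9 measured members, with 13 start sites, and the 250 bases before each start were searched on both strands. The E-box CACGTG was found before 4 of the 13 starts, against 6.02% of the 32851 start sites in the table: 1 of the 2 starts of Per1, the single start of Cry1 and both starts of Tef. D-boxes, searched as TTATGTAA and TTACGTAA, were found before Per3 alone, with 2 matches that do not overlap, against 0.931% of all start sites. No exact match to the element of REV-ERB and ROR factors, searched as TAGGTCA, or to the cAMP response element TGACGTCA was found before any of the 13 starts. Of all start sites, 2.23% and 1.55% had such a match. The 4 windows shown are those of Per1, which had the largest rise in AP, of Per3 with its D-boxes, and of the cryptochromes Cry1 and Cry2, of which Cry2 was called and Cry1 was not. They lie at chr11:69098699-69098948 on the plus strand (Per1), and on the minus strand at chr4:151044666-151044915 (Per3), chr10:85185055-85185304 (Cry1) and chr2:92434070-92434319 (Cry2). Capitals mark an E-box or a D-box.
Per1: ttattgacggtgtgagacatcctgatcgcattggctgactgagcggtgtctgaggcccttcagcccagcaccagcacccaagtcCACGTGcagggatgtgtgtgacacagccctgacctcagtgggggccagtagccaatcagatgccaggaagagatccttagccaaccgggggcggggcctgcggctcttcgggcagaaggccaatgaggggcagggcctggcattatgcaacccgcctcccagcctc
Per3: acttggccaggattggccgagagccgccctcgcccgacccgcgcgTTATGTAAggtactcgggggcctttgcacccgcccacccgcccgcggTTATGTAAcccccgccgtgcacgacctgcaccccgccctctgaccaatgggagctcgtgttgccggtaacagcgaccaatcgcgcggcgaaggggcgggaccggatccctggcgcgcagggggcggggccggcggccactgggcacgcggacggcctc
Cry1: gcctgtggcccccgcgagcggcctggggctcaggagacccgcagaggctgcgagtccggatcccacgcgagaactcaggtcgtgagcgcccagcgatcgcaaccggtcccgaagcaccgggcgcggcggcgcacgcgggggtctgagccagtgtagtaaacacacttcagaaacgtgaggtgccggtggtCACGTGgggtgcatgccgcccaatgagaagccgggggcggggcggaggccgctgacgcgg
Cry2: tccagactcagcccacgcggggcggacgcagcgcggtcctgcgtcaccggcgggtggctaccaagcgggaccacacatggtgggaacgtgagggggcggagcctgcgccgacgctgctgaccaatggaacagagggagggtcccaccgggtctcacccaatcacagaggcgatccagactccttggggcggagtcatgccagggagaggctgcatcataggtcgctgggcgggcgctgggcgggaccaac
A match is only a string of letters in this window and says nothing on whether the factor binds there. Variants that differ in any letter from the strings searched were not counted, so a window without a match may still hold a related element.

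The preparations carried the markers their labels call for. All 5 measured progenitor markers, such as Pdgfra, were higher in AP than in AT (median log2 difference 1.62 over both depots), and all 5 adipocyte markers, such as Adipoq, were lower (median -5.72). All 5 leukocyte markers and 3 of 4 endothelial markers were lower too, the exception being Tek, and 4 of 4 mural cell markers were higher (median 2.73). Over all genes, 71.2% of the variance between arrays lay on the first principal component and 10.4% on the second. None of the group means of the 9 clock genes lay under 4.09, the 40th percentile of all deposited values, below which a level was taken as near background.

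**Figure D1:**
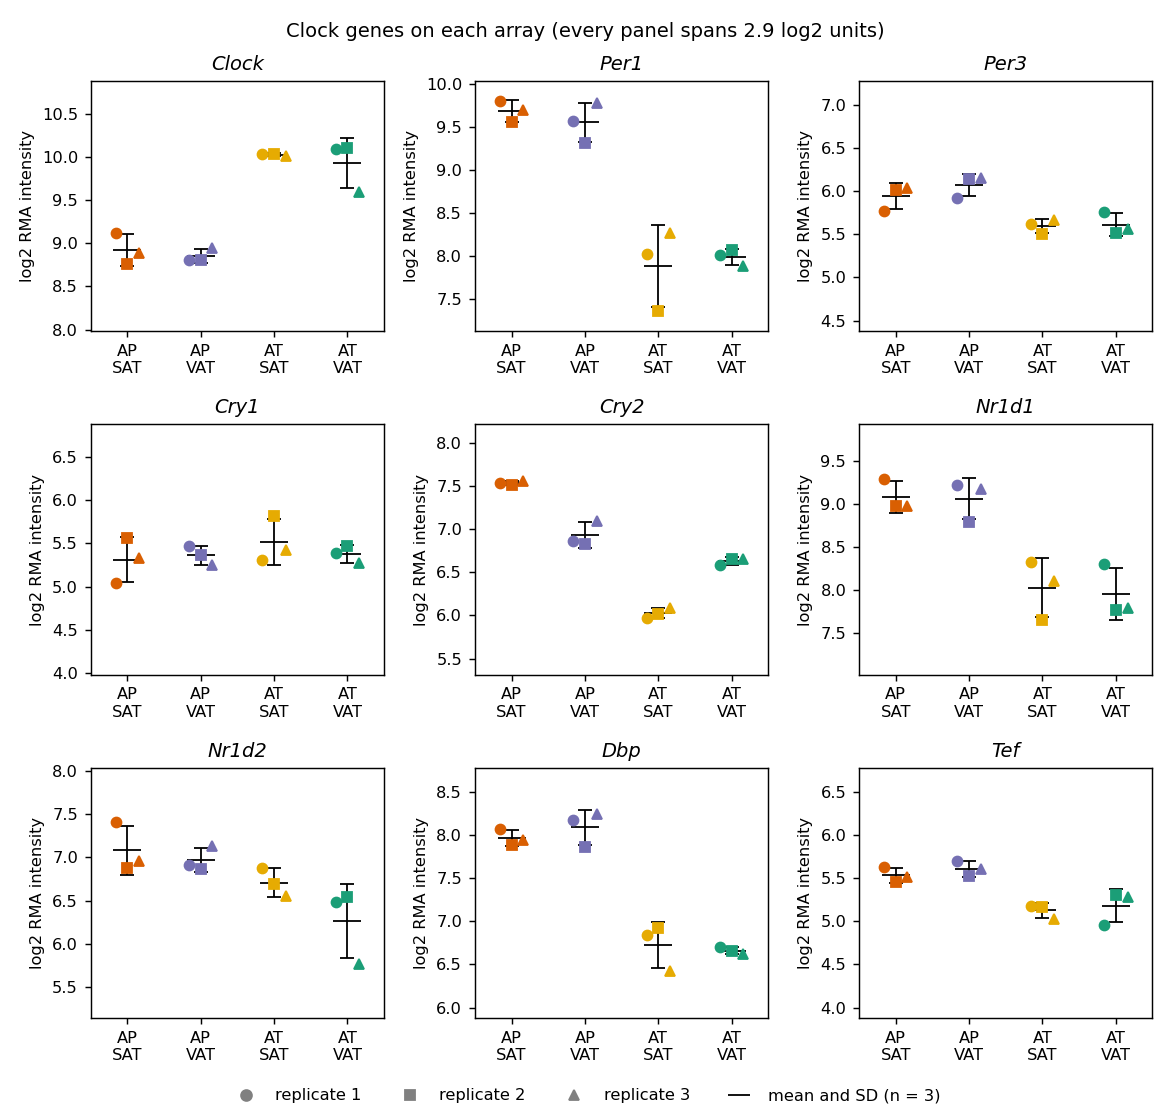
Log2 RMA intensity of the 9 measured clock genes on each of the 12 arrays, in 1 panel per gene with equal spans. Symbols are replicates and bars are the mean and SD of 3; AP lie above AT without overlap for Per1, Per3, Cry2, Nr1d1, Dbp and Tef, and below AT for Clock.

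The first comparison sets AP against the AT they came from. Over both depots 7 of the 9 clock genes rose in AP, 1 fell (Clock) and 1 was not called (Cry1), with a median log2 difference of 0.54 beside 0.035 over all genes tested. The call rule, an adjusted p below 0.05, was met here by 42.5% of all genes (22.0% higher and 20.5% lower in AP). In SAT alone 6 members rose and 1 fell, where 32.4% of all genes were called (16.1% higher and 16.3% lower). In VAT 7 rose and 1 fell, where 32.6% were called (15.8% higher and 16.8% lower). Values of the 6 AP and 6 AT arrays did not overlap for 7 of the 9 members, against 23.5% of all genes. With the 12 arrays aligned on the median of 12 housekeeping genes, the share of called genes that were higher in AP moved from 49.7% to 25.2% in SAT and from 48.4% to 82.6% in VAT, with a median over all genes of -0.20 and 0.32. Under that scaling Per3 and Tef lost their calls in SAT (0.11, adjusted p = 0.55, and 0.17, adjusted p = 0.294) and Cry1 gained one as lower in AP (-0.44, adjusted p = 0.0349), so that 4 members were higher and 2 lower there. In VAT Per3, Tef and Cry2 stood at 0.745, 0.71 and 0.585.

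Clock, the activator at the head of the loop, was the member that went down. In AP from SAT it was at 9.12, 8.76 and 8.89, and in AP from VAT at 8.81, 8.81 and 8.95. Whole tissue stood at 10.04, 10.03 and 10.01 in SAT and at 10.09, 10.10 and 9.59 in VAT. Every AP array was below every AT array, with a gap of 0.47 or more between them. The log2 difference over both depots was -1.09 (SE 0.096, 2.12-fold, adjusted p = 1.54e-07), with -1.10 (SE 0.136) in SAT and -1.07 (SE 0.136) in VAT. In bulk material, a lower share of the cells that make a transcript and less of it per cell cannot be told apart.

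Per1, a repressor of the loop, had the largest rise of the 9. Its values in AP were 9.80, 9.55 and 9.70 in SAT and 9.57, 9.31 and 9.77 in VAT. In AT they were 8.03, 7.36 and 8.27 in SAT and 8.01, 8.07 and 7.89 in VAT. The highest AT array, at 8.27, lay well below the lowest AP array, at 9.31. The difference was 1.68 (SE 0.131, 3.20-fold, adjusted p = 3.59e-08) over both depots, 1.80 (SE 0.185) in SAT and 1.56 (SE 0.185) in VAT. The spread was widest in AT from SAT, with an SD of 0.47 against 0.092 in AT from VAT. Per3, the third of the period genes and not an essential one for the rhythm, rose by less. It was at 5.94 ± 0.15 (SD, n = 3) and 6.07 ± 0.13 in AP from SAT and VAT, and at 5.59 ± 0.083 and 5.61 ± 0.13 in AT, a difference of 0.40 (SE 0.081, adjusted p = 0.000675). The lowest AP array, 5.77, was only just above the highest AT array, 5.76. In SAT alone Per3 was at 0.35 (adjusted p = 0.0282). There the adjusted p was 0.101 and 0.111 without replicate 2 or 3 of AP from SAT, and 0.058 and 0.0993 without replicate 1 or 2 of AT from SAT.

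Of the cryptochromes, the partners of the PER proteins in repression, Cry2 was called in both depots and Cry1 in neither, except that Cry1 was called lower in AP from SAT with the housekeeping alignment given above. The difference between these genes was not tested. Cry1 ranged from 5.04 to 5.56 in AP and from 5.27 to 5.82 in AT, so the preparations overlapped. Its difference over both depots was -0.11 (SE 0.105, adjusted p = 0.433), with a 95% confidence interval of -0.33 to 0.11, so a difference of 2-fold lies outside what these arrays allow. Cry2 was higher in AP by 1.51 (SE 0.099, 2.85-fold, adjusted p = 1.24e-08) in SAT and by 0.30 (SE 0.099, 1.23-fold, adjusted p = 0.0293) in VAT. In VAT the adjusted p of Cry2 was 0.117 without replicate 3 of AP, then 0.0886 without replicate 1 of AT and 0.0501 without replicate 2 of AT, and 0.0832 with the arrays of VAT alone.

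The REV-ERB receptors of the inner loop rose. Nr1d1 was at 9.29, 8.97 and 8.97 in AP from SAT and at 9.22, 8.79 and 9.17 in AP from VAT. In AT it was at 8.32, 7.65 and 8.11 in SAT and at 8.30, 7.77 and 7.79 in VAT. All AP arrays were above all AT arrays, and the depots overlapped within each preparation. The difference was 1.08 (SE 0.13, 2.11-fold, adjusted p = 4.95e-06) over both depots, with 1.05 in SAT and 1.11 in VAT. Nr1d2 rose by 0.54 (SE 0.133, adjusted p = 0.00352), but its lowest AP array, at 6.87, met the highest AT array, at 6.88. In VAT the difference was 0.71 (SE 0.188, adjusted p = 0.00847), and 0.46 (adjusted p = 0.037) without replicate 3 of AT from VAT, which was at 5.77 where its companions were at 6.48 and 6.54. In SAT it was 0.38 (SE 0.188) and was not called (adjusted p = 0.153).

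Dbp and Tef, the D-box factors at the output of the loop, rose in AP. Dbp was at 8.07, 7.88 and 7.94 in AP from SAT and at 8.17, 7.86 and 8.24 in AP from VAT. In AT it was at 6.84, 6.92 and 6.42 in SAT and at 6.70, 6.66 and 6.62 in VAT. The groups were far apart, with the lowest AP array at 7.86 and the highest AT array at 6.92. The difference was 1.33 (SE 0.096, 2.52-fold, adjusted p = 1.44e-08), with 1.24 in SAT and 1.43 in VAT. Tef ranged from 5.46 to 5.70 in AP and from 4.96 to 5.30 in AT, without overlap, a difference of 0.42 (SE 0.079, adjusted p = 0.000447). Its second probe set was dimmer and did not follow in SAT, but was higher in AP in VAT. Its means were 4.43 and 4.68 in AP from SAT and VAT, and 4.48 and 4.31 in AT. With the mean of both probe sets the difference in SAT fell from 0.41 to 0.18 (adjusted p = 0.176), while the calls in VAT and over both depots were kept.

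**Figure D2:**
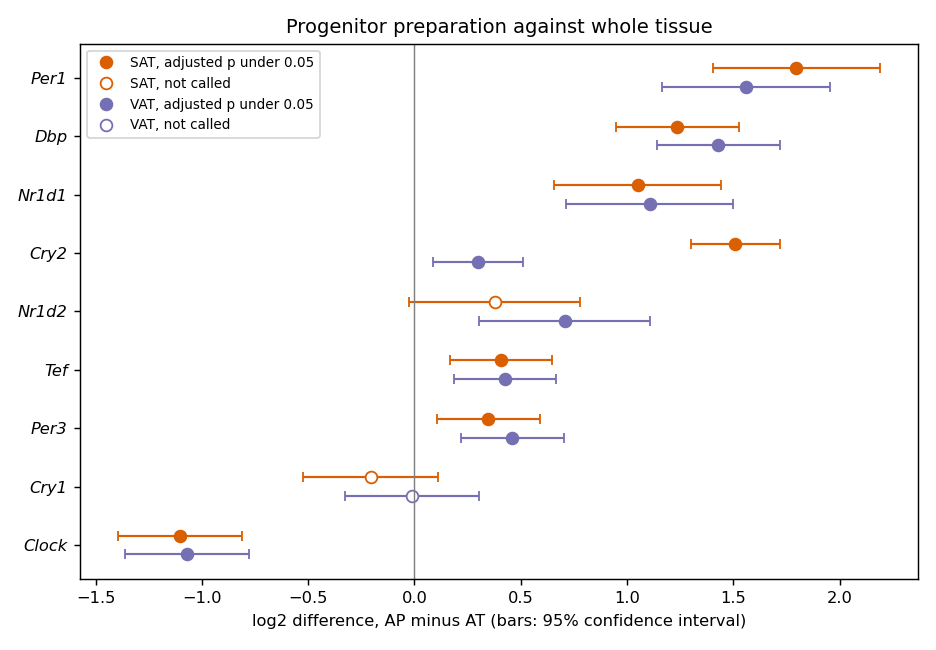
Log2 difference of AP minus AT for each clock gene in SAT and in VAT, with 95% confidence intervals from the limma fit; filled symbols passed an adjusted p of 0.05. Per1, Dbp and Nr1d1 lie above 1 and Clock below -1 in both depots, and Cry2 is at 1.51 in SAT and 0.30 in VAT.

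How far the depots differ was asked next, in AP and in AT. Among the 9 members only Cry2 was called between VAT and SAT, where 5.64% of all genes were called in AP (2.60% lower in VAT) and 4.55% in AT (2.80% higher in VAT). Groups without overlap were found for 20.4% of all genes in AP and 18.1% in AT. In AP from SAT Cry2 was at 7.54, 7.51 and 7.56, and in AP from VAT at 6.86, 6.83 and 7.10. In AT from SAT it was at 5.97, 6.02 and 6.09, and in AT from VAT at 6.58, 6.66 and 6.65. The 4 groups did not overlap at all, in the order AP from SAT, AP from VAT, AT from VAT, AT from SAT. Neighbours in this order differed at each step, although the step between AP and AT of VAT depends on single arrays as given above.

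Cry2 thus differed between depots in opposite directions in the 2 preparations. VAT was lower than SAT by 0.61 in AP (SE 0.099, 1.52-fold, adjusted p = 0.00105) and higher than SAT by 0.60 in AT (SE 0.099, 1.52-fold, adjusted p = 0.00172). The interaction, which subtracts the depot difference of AT from the one of AP, was -1.21 (SE 0.14, adjusted p = 0.000379), in a test that 2.15% of all genes passed (1.16% with a negative value). It ranged from -1.30 to -1.16 when each array was left out in turn. After alignment on the housekeeping genes, the median depot difference of all genes in AP moved from 0 to 0.34 and the median interaction to 0.515. Cry2 was then at -0.265 in AP (adjusted p = 0.0604), at 0.43 in AT (adjusted p = 0.0305) and at -0.69 for the interaction (adjusted p = 0.00679). Markers of the mesothelium, the lining of the body cavity, were higher in VAT in both preparations, 4 of 4 each time, with a median difference of 3.70 in AP and 3.65 in AT. Their mean log2 level over the 4 genes ranged from 5.02 to 5.45 in AP from SAT, from 8.83 to 9.51 in AP from VAT, from 4.81 to 5.25 in AT from SAT and from 8.55 to 8.86 in AT from VAT. Their part in the depot differences of Cry2 was not tested.

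**Figure D3:**
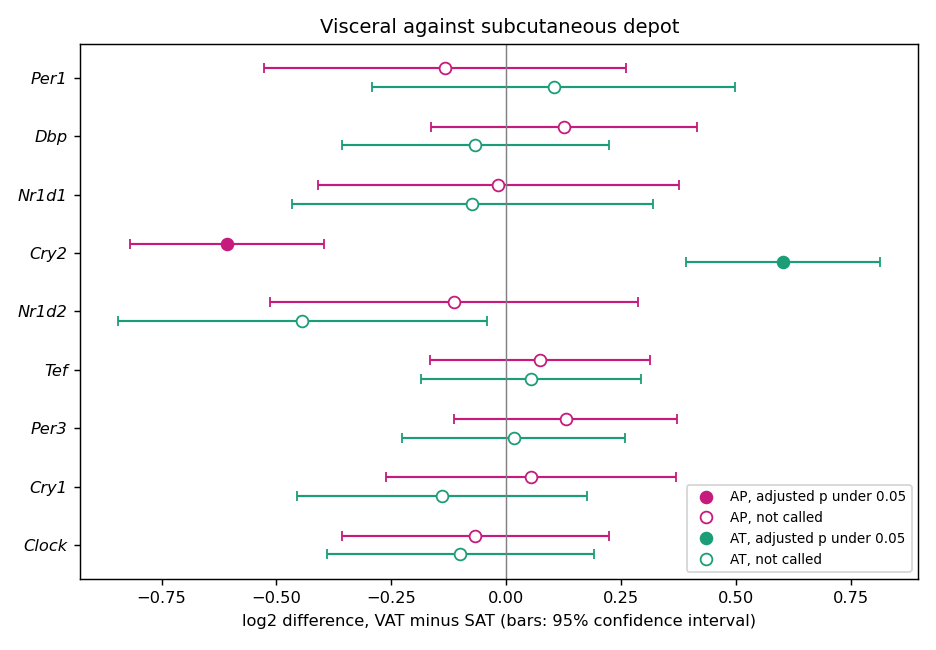
Log2 difference of VAT minus SAT for each clock gene in AP and in AT, with 95% confidence intervals; filled symbols passed an adjusted p of 0.05. Cry2 alone is called, at -0.61 in AP and 0.60 in AT.

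The other 8 members were not called between the depots. In AP their differences lay between -0.13 (Per1) and 0.13 (Per3), with adjusted p from 0.711 to 0.986, and their 95% confidence intervals reached from -0.53 to 0.42. In AT they lay between -0.44 (Nr1d2) and 0.10 (Per1), with intervals from -0.84 to 0.50. Nr1d2 had no overlap between the depots in AT, but an adjusted p of 0.253. Interactions of these 8 genes lay between -0.24 and 0.33, with adjusted p from 0.667 to 0.979. A depot difference of 2-fold in these genes lies outside all of these intervals, and smaller differences that lie inside them remain possible. With the arrays shifted to the housekeeping genes, Per3, Dbp and Tef were called in AP at 0.47, 0.47 and 0.415, next to the median shift of 0.34 for all genes. For the interaction, 6 of the 8 (Clock, Per3, Cry1, Nr1d2, Dbp and Tef) were then called at 0.54 to 0.85, next to a median of 0.515.

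Replicates of a group differed from each other in several clock genes at once. In both AP groups replicate 2 had the lowest value, ties included, for the same 7 genes: Clock, Per1, Cry2, Nr1d1, Nr1d2, Dbp and Tef. Its deviations from the group mean in AP from VAT were -0.24 for Per1, -0.27 for Nr1d1 and -0.23 for Dbp, and in AP from SAT -0.13, -0.11 and -0.08. Replicate 2 was also lowest in both, ties included, for the glucocorticoid targets Tsc22d3, Zbtb16, Dusp1, Nfkbia, Cebpd and Errfi1. Of that list, read further below, Fkbp5, Sgk1, Klf9 and Ddit4 were not lowest in both. How many of all genes were lowest on a given array was not counted, so these low values cannot be called particular to the clock genes. In AT from SAT replicate 2 was the lowest in Per1 (-0.53) and Nr1d1 (-0.38) but the highest in Dbp (0.19) and Cry1 (0.30). Replicate 3 of AT from VAT was lowest in 5 members, Clock (-0.34) and Nr1d2 (-0.49) above all. These deviations are smaller than the AP to AT differences of Clock, Per1, Nr1d1 and Dbp.

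**Figure D4:**
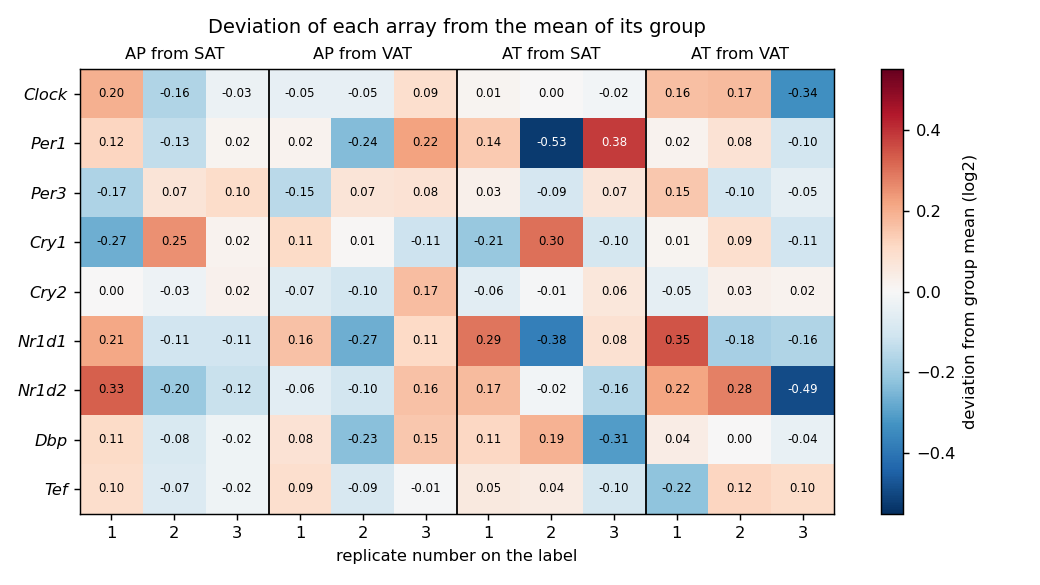
Deviation of every array from the mean of its group, in log2 units, for the 9 clock genes; columns are arrays, ordered by group and by the replicate number on the label. In both AP groups the column of replicate 2 is at or below 0 for Clock, Per1, Cry2, Nr1d1, Nr1d2, Dbp and Tef.

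Genes whose levels most resembled those of the members over the 12 arrays were named as a description, since the arrays fall into AP and AT and any gene that separates them has a high correlation. Nearest to Per1 were Klf7 (Pearson r = 0.992), Gabra3 and Myof, and nearest to Dbp were Gadd45b (r = 0.989), Mef2d and Junb. Clock was most like Zranb2 (r = 0.992), Nr1d1 like Apold1 (r = 0.971) and Cry2 like Surf4 (r = 0.978). Cry1 had no close companion on this scale, its highest r being 0.868. With each array's deviation from its group mean, a single pair of members was among each other's 3 nearest genes. This pair was Clock and Nr1d2 (r = 0.957 over 12 arrays). Without the 2 arrays where Clock was farthest from its group mean, r was 0.902. The group means still included those 2 arrays, so 0.902 does not show the pair without their influence.

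The rest of the clock pathway was read from lists of genes that act with the members. Of 10 measured transcription factors of the clock other than the members, 7 rose in AP over both depots and 0 fell. Over all genes, 22.0% were called higher and 20.5% lower in that comparison. The repressor Bhlhe40 (DEC1), which competes with CLOCK for E-boxes, rose by 1.71 (SE 0.131, 3.28-fold, adjusted p = 2.80e-08). It ranged from 9.02 to 9.35 in AP and from 6.94 to 7.75 in AT. Nfil3, which competes with DBP and TEF for D-boxes, rose by 1.01 (SE 0.143, adjusted p = 2.55e-05), and Npas2, a relative of Clock that can stand in for it, by 0.63 (SE 0.09, adjusted p = 3.23e-05). Arntl, the partner of Clock, was at 7.52 to 7.69 in AP and 7.46 to 7.94 in AT, a difference of -0.14 (SE 0.08, adjusted p = 0.19, 95% confidence interval -0.31 to 0.03). Rora and Hlf were not called either.

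Rorb, an orphan receptor that binds the same element as the REV-ERB factors, was called between the depots in AP. With the values as deposited, no other factor of that list was called between depots. Rorb was at 6.77, 5.90 and 6.44 in AP from SAT and at 5.04, 4.70 and 4.60 in AP from VAT, lower in VAT by 1.59 on the log2 scale (SE 0.221, adjusted p = 0.000259). In AT it was at 5.63, 4.94 and 5.50 in SAT and 4.47, 5.01 and 4.92 in VAT (difference -0.56, SE 0.221, adjusted p = 0.216). The interaction was -1.03 (adjusted p = 0.119) and had an adjusted p of 0.0468 without replicate 2 of AP from SAT. In SAT it was higher in AP by 1.01 (adjusted p = 0.00194), and in VAT it was at -0.02. Its rise in AP over both depots, 0.50 (adjusted p = 0.0178), had an adjusted p of 0.0525, 0.0517 and 0.053 when replicate 1 of AP from SAT, of AP from VAT or of AT from VAT was left out.

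Among 15 measured enzymes and cofactors that modify clock proteins, 4 rose and 6 fell in AP over both depots. Of all genes, 22.0% were called higher and 20.5% lower there. Usp2, a deubiquitinase that acts on clock proteins and is itself a clock output, rose by 1.59 (SE 0.107, 3.02-fold, adjusted p = 6.71e-09), from 6.08 to 6.86 in AT to 7.89 to 8.53 in AP. The casein kinase Csnk1e, which phosphorylates PER proteins, rose by 0.67 (SE 0.085, adjusted p = 8.88e-06), and the ligase subunits Btrc and Fbxw11, which mark PER for decay, by 0.33 and 0.29. These 2 were called in SAT (Btrc 0.45, adjusted p = 0.00317; Fbxw11 0.52, adjusted p = 0.000538) and not in VAT (0.20, adjusted p = 0.163; 0.06, adjusted p = 0.684), and neither interaction passed (adjusted p = 0.522 and 0.115). With the housekeeping alignment the calls were in VAT (0.49 and 0.345) and not in SAT (0.22 and 0.28). Between depots in AP, Fbxw11 was lower in VAT by 0.45 on the log2 scale (SE 0.097, adjusted p = 0.0092), and at -0.11 (adjusted p = 0.435) with that alignment. Both catalytic subunits of AMP-activated kinase, which phosphorylates cryptochromes, fell: Prkaa1 by 0.91 (SE 0.074) and Prkaa2 by 0.88 (SE 0.116). Csnk2a1, Parp1, Kdm5a and Sirt1 fell by 0.25 to 0.57, and Sirt1 lost its call when any 1 of 7 arrays was left out (adjusted p 0.0548 to 0.102). Fbxl21 lay near background in all groups.

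**Figure D5:**
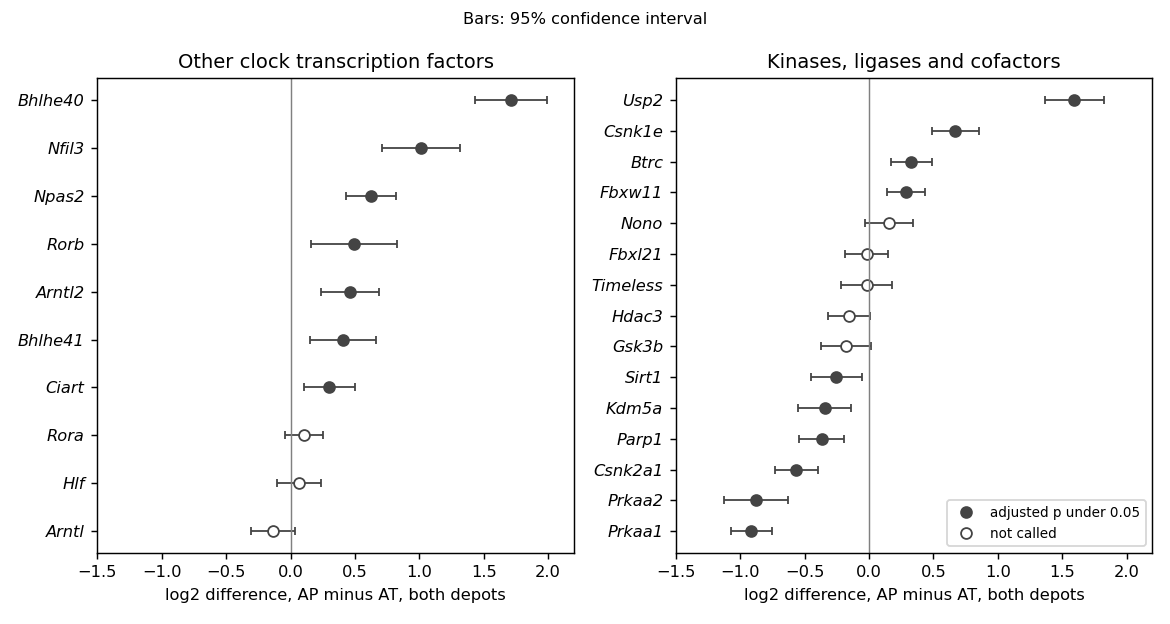
Log2 difference of AP minus AT over both depots for the measured clock transcription factors other than the members (left) and for kinases, ligases and cofactors of the clock (right), with 95% confidence intervals; filled symbols passed an adjusted p of 0.05. Bhlhe40 at 1.71 and Usp2 at 1.59 lie farthest to the right, Prkaa1 at -0.91 and Prkaa2 at -0.88 farthest to the left.

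Genes that the clock is known to drive, of metabolism apart from Wee1, mostly fell in AP. Of 11 measured, 9 fell and 1 rose over both depots (median -1.91), beside 20.5% lower and 22.0% higher over all genes. Those that fell included the lipases Pnpla2 (-3.08) and Lipe (-2.22), the NAD-forming enzyme Nampt (-0.88) and the haem enzyme Alas1 (-0.99). Several of them are adipocyte genes, and the adipocyte markers fell in the same samples, with a mean log2 level over 5 genes of 5.19 to 5.92 in AP and 10.8 to 11.4 in AT. The part of adipocyte content in these falls and in that of Clock was not tested. Wee1, the cell cycle kinase with E-boxes in its promoter, was the 1 that rose (0.35, adjusted p = 0.0487), with an adjusted p of 0.0712 to 0.124 when any 1 of 7 arrays was left out and a value of 0.22 without replicate 2 of AT from SAT.

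The rises of Per1, Dbp, Nr1d1 and Cry2 stood beside rises of genes that respond quickly to signals. Of 13 genes driven by cAMP response elements or other immediate early elements, 10 rose in AP over both depots and 1 fell (median 4.11). Over all genes, 22.0% were called higher and 20.5% lower. Fos rose by 6.12 (SE 0.098) and the CREB target Sik1, a kinase that feeds back on cAMP signals, by 2.18 (SE 0.104). Crem (0.17) and Pde4d (-0.20) of the same list were not called. The 1 that fell was Ppargc1a (-1.97), which is also counted among the clock outputs above. The mean log2 level over the 13 genes was 9.02 to 9.22 in AP and 5.73 to 6.30 in AT. Of 10 glucocorticoid targets, 8 rose and 0 fell over both depots (median 1.04), led by Dusp1 (2.91, SE 0.117). Zbtb16 was higher in AP in SAT (0.58, adjusted p = 0.0248) and lower in VAT (-0.60, adjusted p = 0.0218). Each of these 2 calls was lost without certain single arrays. Both were also lost with the housekeeping alignment, at 0.35 in SAT (adjusted p = 0.165) and -0.31 in VAT (adjusted p = 0.164). Tsc22d3, a standard readout of the glucocorticoid receptor, was at 0.04 (SE 0.108, adjusted p = 0.792). Fkbp5, another such readout, rose by 0.49 over both depots (adjusted p = 0.0195), with 0.83 in SAT and 0.15 in VAT. Its adjusted p over both depots was 0.0526, 0.0538 and 0.051 without AP replicate 3 from VAT, AT replicate 1 from SAT and AT replicate 3 from VAT, each left out alone. The part of these responses in the clock genes' differences was not tested, and since only the AP were dissociated, handling and cell type cannot be told apart in these differences.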

How the data were processed

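The authors deposited 1 log2 intensity per probe set and array, made with RMA in Affymetrix Expression Console 1.3.0.187, per the submitters' processing notes. The log base follows from RMA, and values run from 1.69 to 13.48. The annotation library, its build and the summary level are not given in the sources used here. The values were used as deposited, without further normalization.

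Of 41345 probe sets, 23521 had a single gene in the annotation, 1814 several and 16010 none. The first kind gave 22180 genes. A lookup by Entrez ID in RefSeq changed 0 symbols. Limma 3.58.1 in R 4.3.3 fitted 1 mean per group over all 12 arrays, with 8 residual and 6.84 prior degrees of freedom. Tests were 2-sided, with Benjamini-Hochberg adjustment over the 22180 genes, separately in each of 6 contrasts. Standard errors and 95% confidence intervals (not adjusted) come from that fit. Precision is limited by having 3 arrays per group. The code was tested on simulated data. Figures used Python 3.11.15.

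All 10 members, the genes of the lists of clock factors, clock modifiers, clock outputs, glucocorticoid targets, immediate early genes and cell type markers, and the 3 genes nearest to each member could be named. The members and lists were chosen with earlier results of these data known. Alternatives tried were a block for the replicate number, other empirical Bayes options, quantile normalization, cyclic loess, scaling to housekeeping genes, a filter at the 40th percentile in at least 3 arrays, the mean of probe sets, the compared groups alone, a minimum log2 difference of 1 and leaving out each array. Same-numbered arrays did not clearly deviate together. The correlation of deviations across genes was -0.28 to 0.16 over 18 such pairs, above 0.1 in 3. Over 36 pairs with different numbers it was -0.18 to 0.31, above 0.1 in 6. Between AP from SAT and AP from VAT the same-numbered values were 0.021, 0.12 and 0.087, all small and positive. The numbers were not taken to pair samples.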

Additional observations from a re-analysis of the deposited data

Results flagged for a closer look

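Cry2 had depot differences in AP and AT that differed from each other, with an interaction of -1.21 (-0.61 in AP, 0.60 in AT). By the same test 4 genes of the response and output lists differed. Zbtb16, a glucocorticoid target, had an interaction of -1.18 (SE 0.263, adjusted p = 0.0306), with -0.38 in AP and 0.79 in AT; the adjusted p was 0.0527 to 0.0953 when any 1 of 9 arrays was left out. Sgk1, a kinase induced by glucocorticoids, had an interaction of 0.87 (SE 0.161, adjusted p = 0.0101), with 0.67 in AP and -0.20 in AT. With the arrays aligned on housekeeping genes, Zbtb16 was at -0.66 (adjusted p = 0.0488) and Sgk1 at 1.39 (adjusted p = 0.000182). The nuclear receptor Ppard (-0.58, adjusted p = 0.0468) and the lipoprotein lipase Lpl (-0.55, adjusted p = 0.0427) lost the call when any 1 of 10 arrays (Ppard, adjusted p 0.0686 to 0.118) or 11 arrays (Lpl, 0.059 to 0.124) was left out, and with the same alignment they were at -0.065 (adjusted p = 0.749) and -0.03 (adjusted p = 0.88).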

How the results depend on the processing

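Over both depots no member lost its call when any single array was left out. Of the results called for members, 539 values under the alternatives kept direction and call, 24 lost the call and 0 changed direction. Of the 24, 12 fell to a minimum log2 difference of 1, 7 to leaving out an array, 3 to the scaling on housekeeping genes, 1 to the mean over probe sets and 1 to the compared groups alone. Housekeeping scaling was the setting under which members gained calls, 10 in all. Groups of 3 arrays limit what can be seen between depots. The cause of the changes below was not tested.

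With the arrays scaled to housekeeping genes the calls in VAT (AP against AT) were 17 other clock pathway genes (from 9) and 11946 of all genes (from 7239). Between depots in AP they were 3 members (from 1), 7 other pathway genes (from 2) and 9450 of all genes (from 1250), and for the interaction 7 members (from 1), 9 other pathway genes (from 0) and 11377 of all genes (from 476). Differences without a call changed sign under it for Cry1 in VAT (0.27), between depots in AP for Clock (0.275), Per1 (0.21), Nr1d1 (0.325) and Nr1d2 (0.23), between depots in AT for Per1 (-0.073), Per3 (-0.16) and Tef (-0.12), and for the interaction of Per1 (0.28). Quantile normalization gave 0.025 for Nr1d1 between depots in AP and -0.061 for the interaction of Tef; cyclic loess gave 0.059 for Nr1d1, 0.0036 for Clock and -0.028 for that interaction; the mean over probe sets gave -0.06 for Tef between depots in AT.

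Requiring a log2 difference of at least 1 left 4 other pathway genes (from 14) and 2204 of all genes in SAT, 4 members, 3 other pathway genes and 1966 of all genes in VAT, and 4 members, 3 other pathway genes (from 17) and 1986 of all genes (from 9430) over both depots. It left 0 members, 1 other pathway gene and 370 of all genes between depots in AP, 0 members and 251 of all genes in AT, and 221 of all genes for the interaction. With the compared groups alone, 601 of all genes (from 1009) were called between depots in AT.

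Leaving out 1 array gave 660 (without AT from SAT replicate 1) to 1026 of all genes between depots in AT, and 264 to 626 for the interaction: 264 and 309 without AP from SAT replicate 1 or 2, 279 without AP from VAT replicate 2 and 293 without AT from SAT replicate 1. It gave 0 to 1 other pathway genes for the interaction, the 1 being Rorb without AP from SAT replicate 2. Differences without a call that changed sign ranged, for AP against AT in VAT, from -0.067 to 0.043 (Cry1). Between depots in AP they ranged from -0.15 to 0.032 (Clock), -0.082 to 0.18 (Cry1), -0.097 to 0.12 (Nr1d1) and -0.215 to 0.05 (Nr1d2). Between depots in AT they ranged from -0.19 to 0.068 (Clock), -0.16 to 0.295 (Per1), -0.058 to 0.067 (Per3), -0.24 to 0.012 (Cry1), -0.26 to 0.073 (Nr1d1), -0.22 to 0.03 (Dbp) and -0.0067 to 0.16 (Tef). Interactions ranged from -0.135 to 0.13 (Clock), -0.43 to 0.027 (Per1), -0.09 to 0.245 (Nr1d1) and -0.09 to 0.08 (Tef).

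With the replicate number as a block, the members called were 7 in SAT, 8 in VAT and 8 over both depots, and 1 each between depots in AP, in AT and for the interaction, as without it; all genes called were 7013, 6968, 9169, 1187, 946 and 417.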
